A study of Rattus norvegicus with 12 samples.

Results

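The genes described here are 68 named genes whose mRNA signal in the rat prostate was lower after bladder outlet obstruction and was also lower after Eviprostat alone, each against sham-operated rats on vehicle. They were chosen from measured values. For every gene name the brightest non-control probe was taken, and the scanner software's log2 ratio of the red dye over the green dye (Cy5 over Cy3) was averaged over the 3 arrays of each group. A gene entered when the obstruction/vehicle mean and the sham/Eviprostat mean each lay at least 0.6 below the sham/vehicle mean and the Cy5 spot was well above background on all 3 sham/vehicle arrays. Of 12505 named genes on the array, 10424 met the background condition, 1140 of those were at least 0.6 lower with obstruction and 146 with the drug alone. Both conditions held for 70, which is 6.14% of the obstruction list and 47.95% of the drug list. Both lists use the same sham/vehicle arrays, so the overlap is a count and not a result. Gys2 and Wfdc5 were left out by name, leaving 68. Of all names that passed, a further 325 were accessions or probe identifiers and 40 were locus identifiers, and none of these is counted here.

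The study used 12 two-colour arrays with 3 per group on prostates of male rats aged 10 weeks. Sham/vehicle rats had a sham operation and 0.1% Tween 80, sham/Eviprostat rats had a sham operation and 18 mg/kg Eviprostat per dose (36 mg/kg daily), obstruction/vehicle rats had a ring tied around the proximal urethra and the vehicle, and obstruction/Eviprostat rats had the ring and the drug. Eviprostat is a plant-based preparation given for benign prostatic hyperplasia. Dosing lasted 5 days and tissue was taken 2 h after the last dose. It began the day after surgery in obstructed rats but 5 days after the operation in sham rats, so the operation and the time since it cannot be told apart. Each group had 5 or 6 animals, and the labelling protocol speaks of prostate tissue pooled by group, so p-values here measure only the spread between arrays. Fewer cells of a type and less RNA per cell cannot be told apart in such tissue. Cy5 carried the group's own RNA and Cy3 carried sham/vehicle RNA on every array, without a dye swap. From sham/vehicle 1500 ng of RNA entered the labelling and from the others 300 ng each, a difference that runs with the groups. Replicates 1, 2 and 3 of all groups lay on slides 1, 2 and 3, and a group kept its position from slide to slide, so position cannot be told apart from group either.

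The prostate is a gland whose luminal epithelium makes and secretes the proteins, ions and small molecules of seminal fluid. Cargo moves through the secretory pathway and along the cytoskeleton to the apical membrane, and membrane carriers exchange sugars, sterols, monocarboxylates and ions between blood, cell and lumen. Conjugating enzymes such as sulfotransferases inactivate hormones and foreign compounds in many epithelia. Much of prostate gene expression is driven by androgens through a nuclear receptor that binds DNA near its targets, and metallothioneins, which bind zinc and copper, are switched on by metals through short DNA elements near the gene start.

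To show what lies upstream of members with different readings in obstructed, treated rats, the 250 bases before the annotated start of 5 genes are given, 5′ to 3′ on the gene's strand, from RefSeq on build GRCr8. Of the 68 members, 57 had a promoter in the RefSeq table under their current symbol, 1 of them with several starts. Capitals mark 3 short motifs searched on both strands, namely AGAACA, the hexamer that androgen and glucocorticoid receptors bind in pairs, TATAAA, the TATA box, and the metal response element core TGCGCNC or TGCACNC. Expi was lower than sham/vehicle under obstruction with the drug, and Sult1b1, Abcg5 and Creg were higher there than under obstruction alone. Mt1a, shown as the brightest member, was at -1.02 ± 0.30 (SE) against sham/vehicle in that group and did not pass (limma, adjusted p = 0.38).
Expi (Wfdc18), chr10:69086069-69086318, plus strand: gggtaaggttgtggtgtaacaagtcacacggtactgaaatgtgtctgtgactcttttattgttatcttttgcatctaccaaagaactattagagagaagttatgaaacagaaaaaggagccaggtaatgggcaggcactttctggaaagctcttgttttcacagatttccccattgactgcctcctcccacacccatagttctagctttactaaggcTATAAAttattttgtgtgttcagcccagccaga
Mt1a (Mt1), chr19:10832976-10833225, minus strand: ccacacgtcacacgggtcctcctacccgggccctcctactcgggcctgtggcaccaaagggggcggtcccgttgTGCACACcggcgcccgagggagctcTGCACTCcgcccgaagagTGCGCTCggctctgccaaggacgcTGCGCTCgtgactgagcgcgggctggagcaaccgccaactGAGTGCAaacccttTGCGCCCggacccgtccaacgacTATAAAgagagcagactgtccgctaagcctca
Sult1b1, chr14:20771667-20771916, plus strand: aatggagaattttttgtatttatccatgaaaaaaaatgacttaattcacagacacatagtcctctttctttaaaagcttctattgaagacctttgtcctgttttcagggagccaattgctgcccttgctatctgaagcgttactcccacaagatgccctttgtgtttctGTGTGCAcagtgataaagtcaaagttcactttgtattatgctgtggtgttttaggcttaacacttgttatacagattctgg
Abcg5, chr6:15717686-15717935, plus strand: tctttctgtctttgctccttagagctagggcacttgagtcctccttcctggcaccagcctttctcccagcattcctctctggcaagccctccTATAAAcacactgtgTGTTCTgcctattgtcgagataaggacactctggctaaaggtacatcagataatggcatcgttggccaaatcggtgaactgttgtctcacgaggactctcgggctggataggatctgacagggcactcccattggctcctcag
Creg (Creg1), chr13:80552571-80552820, plus strand: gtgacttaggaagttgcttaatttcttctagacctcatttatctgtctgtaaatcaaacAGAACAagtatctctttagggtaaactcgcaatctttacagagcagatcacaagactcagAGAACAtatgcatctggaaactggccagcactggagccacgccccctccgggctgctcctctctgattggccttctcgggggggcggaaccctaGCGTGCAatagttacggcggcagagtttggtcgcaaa
The Mt1a window holds 6 matches to the metal response core and a TATA box that starts 32 bases before the gene start. In Expi the TATA box starts 33 bases before the gene start and neither other motif was found. Sult1b1 has 1 match to the metal core, Abcg5 has 1 receptor hexamer and 1 TATAAA far from the start, and Creg has 2 hexamers and 1 metal core. AGAACA was present in 9 of the 57 member promoters (15.8%) and in 17.5% of all 33469 promoters of that length in the table. TATAAA was in 11 members (19.3%) against 12.9% of all, and the metal core in 19 (33.3%) against 20.6%. Each member was counted with 1 start, while the 33469 include every start listed for a gene. These are matches of letters and not shown sites.

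By known role, 12 members are metabolic or modifying enzymes, 8 are secreted or extracellular proteins, 8 are transporters or ion channels, 8 are signalling proteins, 4 are vesicle transport or motor proteins, 9 are nuclear proteins, 7 are receptors including 5 olfactory or taste receptors, 1 is a metallothionein and 11 have other or less certain roles. The grouping was made with the values known. Of 67 members with a probe position on build rn3, the largest number on a chromosome was 8, on chromosome 5, and 19 chromosomes held at least 1 member. The probes of Slc2a5 and Car6 lie 47.0 kb apart on chromosome 5, the only pair of members within 100 kb. Hist1h2ba, a testis histone gene, Tmem87a, a membrane protein gene, and Pde5a, the cyclic GMP phosphodiesterase, lay just inside the threshold, with a smaller drop of -0.60, -0.60 and -0.61. Tmf1, Ly6g5b and Nyw1 lay just outside, at -0.59, -0.58 and -0.57.

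Brightness divided the members. On the scale used for the choice, 40 members had a mean log2 processed Cy5 signal of at least 7 over the 12 arrays and 28 were dimmer, a split made after the values were seen. The 5 sensory receptors (olfactory and bitter taste receptors, such as Olr270, Olr1344 and Tas2r123) and both other receptors, of interleukin 9 (Il9r) and of gonadotropin-releasing hormone, were all among the 28. On the scanner ratio, the dimmer members had medians of -0.89 for obstruction and -0.73 for the drug alone, and the brighter members -1.12 and -0.71. After background correction with an offset and loess normalization within arrays, which shrinks ratios of faint spots, the dimmer medians were -0.14 and -0.16 and the brighter medians -0.62 and -0.57. Only 10 members, all of them brighter, had both differences at or below -0.6 on that scale, among them Expi, Car6, Pspla1, Creg, Abcg5, Slc16a6, Myo5c, Sv2b and Mt1a, and 65 of 68 had both below 0. The 3 that did not were Amdhd1, of histidine breakdown, Rgsl2h and Gapdhs, the sperm form of glyceraldehyde-3-phosphate dehydrogenase; the last 2 are named because their values were seen to go the other way, and Gapdhs had no usable spot on sham/vehicle replicate 1.

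The sham/vehicle arrays themselves read high for the members on the scanner ratio. Both dyes carry sham/vehicle RNA there, and 51 of 68 members (75%) had a mean ratio above 0, against 48.1% of the 10424 genes the choice was made from. Both differences of the choice subtract the sham/vehicle mean, so the choice itself favours genes that read high there. The count above 0 was 24 of 28 among the dimmer members, whose median was 0.35, and the brighter members had a median of 0.05. Cy5 was well above background on all 3 arrays of every group for the 40 brighter members, but for only 12 of the 28 dimmer ones in sham/Eviprostat, 12 in obstruction/vehicle and 9 in obstruction/Eviprostat. Olr1344 was not well above background on any obstruction/vehicle or obstruction/Eviprostat array, Keg1 on none of obstruction/vehicle and Amdhd1 on none of obstruction/Eviprostat. Values of single members below are therefore for brighter genes, as log2 ratios after background correction and loess.

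**Figure D1:**
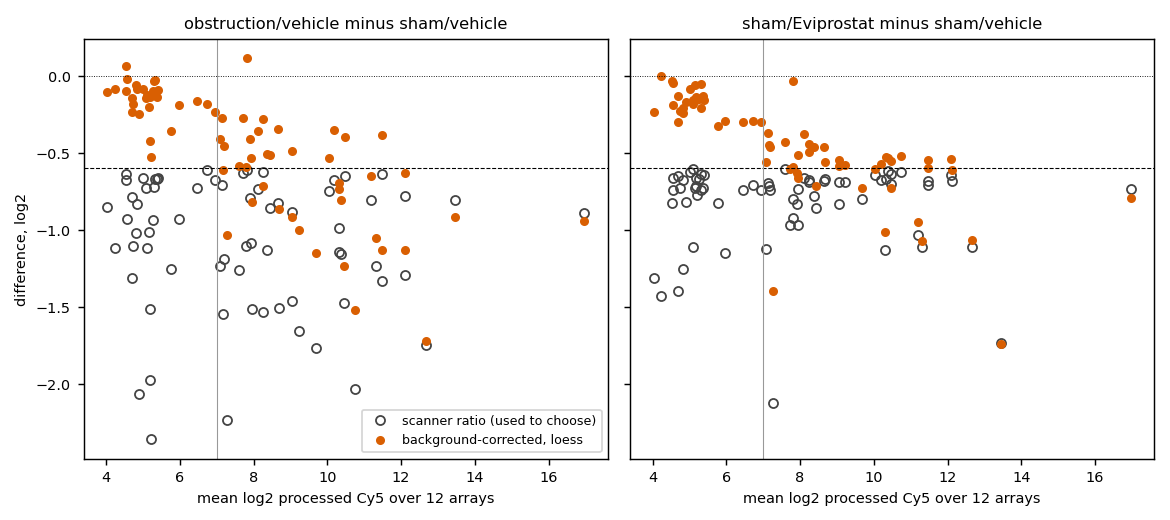
Difference from sham/vehicle (vertical axis, log2) of each of the 68 members against its mean log2 processed Cy5 signal over 12 arrays (horizontal axis), for obstruction/vehicle on the left and sham/Eviprostat on the right. Open circles are the scanner ratios that chose the members, filled circles the same probes after background correction and loess, and the dashed line is the threshold of -0.6; left of the vertical line at 7 the filled circles have medians of -0.14 and -0.16 and all lie above that threshold, the lowest being Keg1 at -0.52 with obstruction.

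Among secreted proteins, Expi and Car6 had low readings in all 3 groups other than sham/vehicle. Expi, a small extracellular peptidase inhibitor of the whey acidic protein class now named Wfdc18, has its probe at chr10:71947391-71947450 of rn3. It read 0.04, 0.13 and -0.01 on sham/vehicle replicates 1, 2 and 3, -1.31, -0.80 and -0.93 on sham/Eviprostat, -1.95, -1.52 and -1.53 on obstruction/vehicle, and -2.05, -2.00 and -2.12 on obstruction/Eviprostat. No array of a treated or obstructed group reached the sham/vehicle range, and the obstruction/Eviprostat arrays were the lowest of all 12. Car6, a carbonic anhydrase secreted in saliva and other fluids (probe chr5:167342858-167346375), read 0.05, -0.10 and -0.08 on sham/vehicle, -1.40, -1.43 and -1.48 on sham/Eviprostat, -1.30, -0.31 and -1.61 on obstruction/vehicle, and -0.93, -1.72 and -1.96 on obstruction/Eviprostat. After background correction and loess, its obstruction/vehicle replicate 2 stood well above the other arrays of that group. On the scanner ratio it did not, with -2.17, -2.35 and -2.32 on obstruction/vehicle replicates 1, 2 and 3. Pspla1 (now Pla1a), a secreted phospholipase specific for phosphatidylserine, read -0.04, 0.00 and 0.00, then -0.97, -0.98 and -0.93, then -0.84, -0.56 and -0.58, and last -0.60, -0.50 and -0.47 in the same order of groups. The 3 sham/Eviprostat arrays were its lowest.

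Creg (now Creg1), a glycoprotein named as a repressor of E1A-stimulated genes, and Hapln2, a link protein that ties hyaluronan to proteoglycans, were also low in both groups of the choice but less so, or not at all, when obstruction and drug were combined. Creg read -0.36, -0.03 and -0.08 on sham/vehicle, -1.05, -0.64 and -0.60 on sham/Eviprostat, -1.55, -1.18 and -1.12 on obstruction/vehicle, and -0.52, -0.38 and -0.37 on obstruction/Eviprostat. Hapln2 read -0.10, -0.05 and -0.13, then -0.79, -0.58 and -0.62, then -0.72, -0.22 and -0.39, and 0.54, 0.49 and 0.64 on obstruction/Eviprostat. All 3 of those last arrays were above all 9 others.

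Among the enzymes, Sult1b1, a sulfotransferase of phenols and thyroid hormones (probe chr14:22031815-22031874), read -0.17, 0.09 and -0.02 on sham/vehicle, -0.86, -0.52 and -0.46 on sham/Eviprostat, -0.86, -0.12 and -0.58 on obstruction/vehicle, but 0.85, 1.03 and 1.00 on obstruction/Eviprostat. On this scale obstruction/vehicle replicate 2 lay within the sham/vehicle range, and the combined group lay apart from all others on the high side. On the scanner ratio the obstruction/vehicle arrays read -1.05, -0.71 and -0.93, all below the sham/vehicle arrays at -0.07, 0.04 and -0.01. Bcmo1 (now Bco1), which cleaves beta-carotene to retinal, read -0.06, 0.34 and 0.16, then -0.83, -0.44 and -0.43, then -0.72, -0.11 and -0.27, and 0.02, 0.45 and 0.43, so sham/vehicle and obstruction/Eviprostat overlapped.

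The carriers of sugar and sterol read low with obstruction and lay near sham/vehicle, or above it, with obstruction and drug. Slc2a5, the fructose transporter (probe chr5:167295887-167295946), read -0.10, -0.03 and 0.01 on sham/vehicle, -1.01, -0.52 and -0.15 on sham/Eviprostat, -1.94, -1.14 and -1.60 on obstruction/vehicle, and 0.38, 0.34 and 0.29 on obstruction/Eviprostat. Its sham/Eviprostat arrays spread widely, down to -1.01 on slide 1. Abcg5, a subunit of the sterol export pump (probe chr6:8028067-8028126), read 0.07, 0.10 and 0.11, then -0.23, -0.86 and -0.81, then -0.97, -0.65 and -1.54, and -0.08, 0.03 and 0.06. Slc16a6, a monocarboxylate transporter, read 0.86, 0.20 and 0.17, then 0.08, -0.47 and -0.56, then -0.58, -0.70 and -1.19, and -0.44, -0.08 and -0.27. For Slc16a6 slide 1 was the highest array of every group except obstruction/Eviprostat, where it was the lowest.

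Of the vesicle and motor proteins, Myo5c, a class V myosin that moves secretory granules in glands (probe chr8:80107030-80107089), read -0.19, 0.09 and -0.04 on sham/vehicle, -1.49, -0.89 and -0.96 on sham/Eviprostat, -1.40, -0.95 and -0.94 on obstruction/vehicle, and -0.72, -0.38 and -0.60 on obstruction/Eviprostat. The last group lay between sham/vehicle and the other two without overlap. Sv2b, a synaptic vesicle glycoprotein (probe chr1:130761141-130761200), read 1.04, 0.36 and 0.28, then -0.86, -1.30 and -1.38, then -0.11, -0.55 and -0.41, and -0.94, -0.45 and -0.56. Mt1a (now Mt1), a metallothionein and the brightest member (probe chr19:11266532-11266591), read 1.05, 0.31 and 0.15, then 0.14, -0.42 and -0.59, then 0.02, -0.78 and -0.56, and -0.01, -0.70 and -0.85. For Mt1a replicate 1 was the highest array of each group, and sham/vehicle replicate 3 at 0.15 barely cleared sham/Eviprostat replicate 1 at 0.14.

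**Figure D2:**
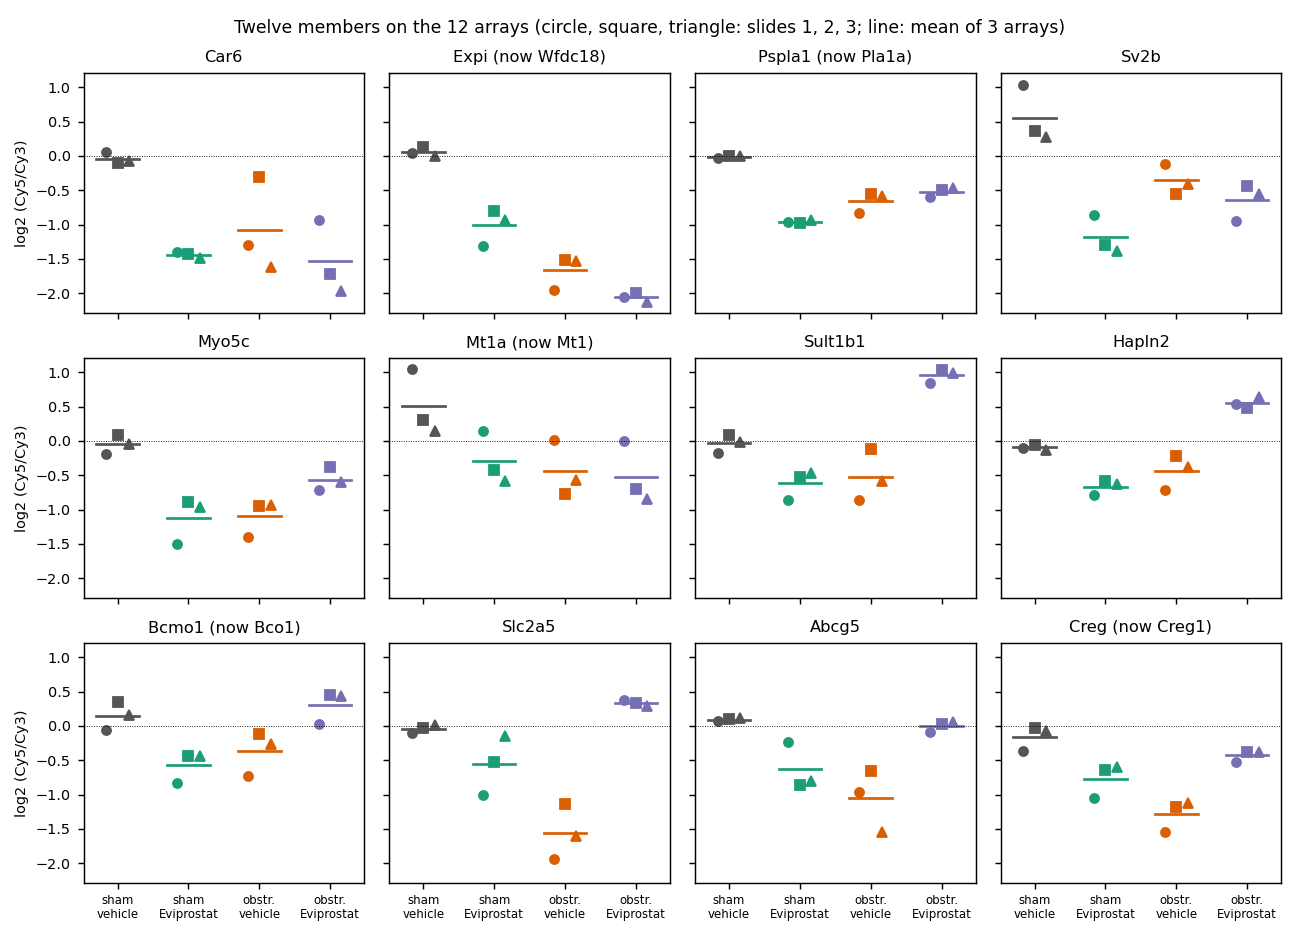
Log2 ratio of Cy5 over Cy3 (vertical axis) on each of the 12 arrays for 12 members, by group (horizontal axis), with symbols for slides 1, 2 and 3 and a line at the mean of 3 arrays. In Sult1b1, Hapln2, Bcmo1 and Slc2a5 the obstruction/Eviprostat arrays return to or exceed the sham/vehicle level, while in Car6, Expi, Pspla1 and Sv2b they stay below it.

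The 3 obstruction/Eviprostat arrays took no part in the thresholds, though they are among the 12 over which the brightest probe of a gene was taken, and taking it over the sham/vehicle arrays alone gave 70 members. These arrays were tested, with their mean against a log ratio of 0, that is, against the sham/vehicle RNA in Cy3 on the same arrays (limma, Benjamini-Hochberg over 36098 probes). Of 68 members, 8 were lower and 2 were higher at an adjusted p under 0.05, beside 1.09% of all probes lower and 1.14% higher. The median was -0.10 over the members and 0.02 over all probes, with 51 members below 0 and 17 above. Among the 8 lower were Expi, Pspla1, Car6, Bphl, Myo5c, Cacna1d and Sv2b, and the 2 higher were Sult1b1 and Hapln2. All 10 were among the 40 brighter members.

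The largest falls were of secreted proteins. Expi fell by 2.06 ± 0.10 (SE, n = 3; adjusted p = 7.22e-07 by limma) and Car6 by 1.54 ± 0.21 (adjusted p = 0.0029 by limma). Pspla1 fell by 0.52 ± 0.06 (adjusted p = 0.0011 by limma) and Myo5c by 0.56 ± 0.12 (adjusted p = 0.036 by limma). Closer to the threshold were Bphl, a serine hydrolase that activates ester prodrugs, at -0.51 ± 0.11 (adjusted p = 0.030 by limma), Cacna1d, the pore subunit of an L-type calcium channel, at -0.50 ± 0.11 (adjusted p = 0.047 by limma), and Sv2b at -0.65 ± 0.15 (adjusted p = 0.049 by limma). Bphl and Cacna1d are named because they passed this test. Sult1b1 rose by 0.96 ± 0.12 (adjusted p = 0.0015 by limma) and Hapln2 by 0.55 ± 0.08 (adjusted p = 0.0047 by limma). In each of these genes all 3 arrays lay on the same side of 0.

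This test does not remove a dye effect, and its Cy3 RNA came from the sham/vehicle tissue that also set the level in the choice. The same test on the sham/vehicle arrays called 0 members and 0.0% of all probes (limma); at an unadjusted p under 0.05 it had 0 members lower and 9 higher. With slide, which the replicate number follows, as a block the count was 21 lower and 6 higher. Shares of all probes, here and below, are for the fit without the block at an adjusted p under 0.05. They were not counted with the block or at an unadjusted p, so those member counts cannot be set against them. Leaving out obstruction/Eviprostat replicate 2 or 3 left 3 lower.

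Against the sham/vehicle arrays, which removes the dye effect but shares arrays with the choice, 4 members were lower and 2 higher, beside 0.119% and 0.175% of all probes (limma, adjusted p under 0.05), and 11 and 3 with slide as a block. Among the 4 were Expi, lower by 4.32-fold (log2 -2.11 ± 0.14, SE), Sv2b by 2.31-fold (-1.21 ± 0.21) and Pspla1 by 1.43-fold (-0.51 ± 0.09). Sult1b1 was 1.99-fold higher (0.99 ± 0.17) and Hapln2 1.57-fold higher (0.65 ± 0.12). Car6 did not pass here, at -1.49 ± 0.30. Mt1a was at -1.02 ± 0.30 and Slc16a6 at -0.68 ± 0.22, and neither passed. Abcg5 was at -0.09 ± 0.20, Bcmo1 at 0.16 ± 0.18 and Slc2a5 at 0.37 ± 0.21, and a difference from sham/vehicle was not shown for any of these.

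**Figure D3:**
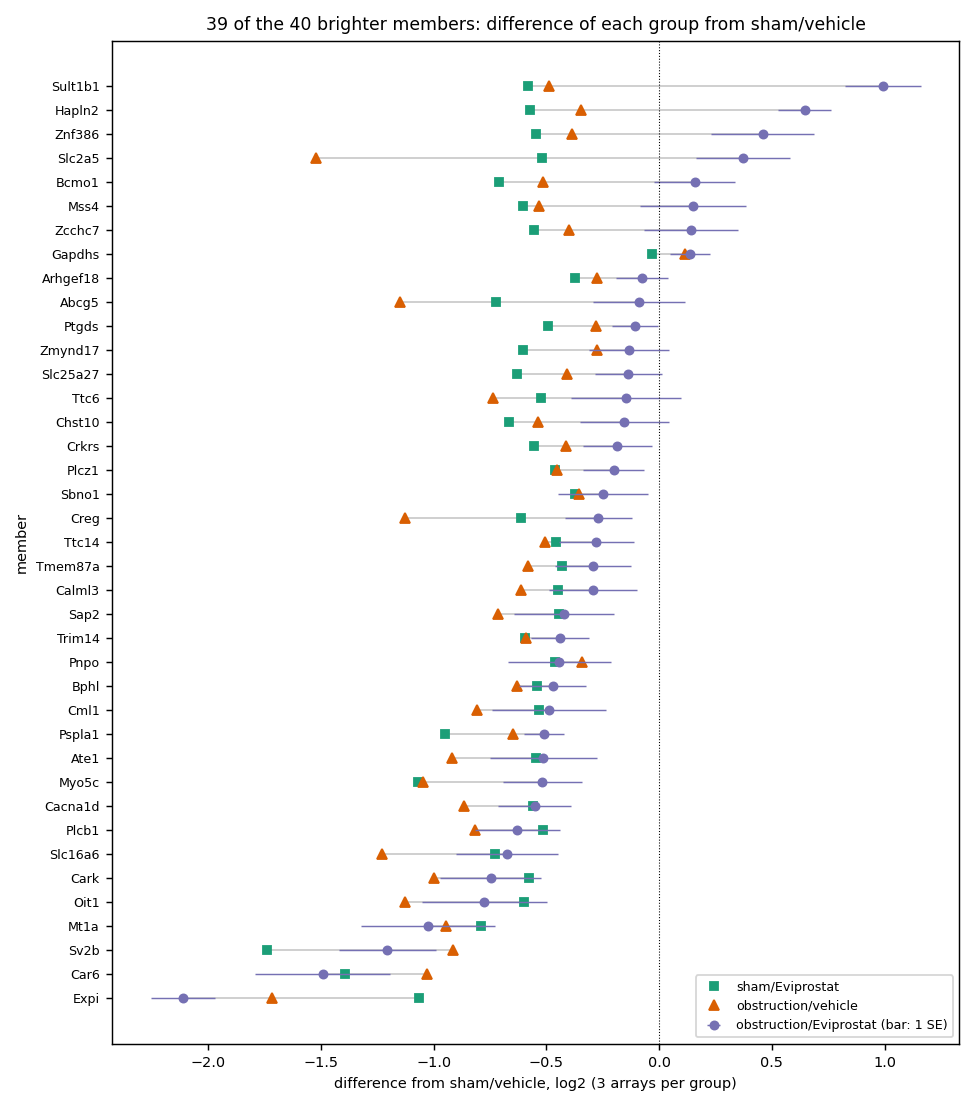
Difference from sham/vehicle (horizontal axis, log2 after background correction and loess, 3 arrays per group) of 39 of the 40 brighter members (rows, ordered by the obstruction/Eviprostat value), as squares for sham/Eviprostat, triangles for obstruction/vehicle and circles with 1 SE for obstruction/Eviprostat. From Expi at -2.11 to Sult1b1 at 0.99, the circles run from below to above the other symbols.

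Set beside the other two groups, obstruction/Eviprostat read higher for a number of members, in a comparison that the choice favours because both of those groups were picked as low. Against obstruction/vehicle 7 members were higher and 0 lower, beside 3.9% and 5.89% of all probes (limma, adjusted p under 0.05); at an unadjusted p under 0.05 it was 15 and 2, and with slide as a block 17 and 1. The 7 were Slc2a5 at 3.72-fold (log2 1.89 ± 0.21, SE), Sult1b1 at 2.79-fold (1.48 ± 0.17), Abcg5 at 2.08-fold (1.06 ± 0.20), Hapln2 at 1.99-fold (0.99 ± 0.12), Creg at 1.81-fold (0.86 ± 0.15), Znf386, a zinc finger protein, at 1.79-fold (0.84 ± 0.23) and Bcmo1 at 1.59-fold (0.67 ± 0.18). Against sham/Eviprostat 5 members were higher and 1 lower, beside 0.97% and 1.31%, and 14 and 1 with slide as a block. Those higher were Sult1b1 at 2.98-fold (1.58 ± 0.17), Hapln2 at 2.33-fold (1.22 ± 0.12), Znf386 at 2.00-fold (1.00 ± 0.23), Bcmo1 at 1.83-fold (0.87 ± 0.18) and Pspla1 at 1.35-fold (0.44 ± 0.09), and Expi was lower, at -1.05 ± 0.14. Without obstruction/vehicle replicate 2 the 7 became 18 and the 5 became 8.

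That replicate stood apart for the members. It was the highest of the 3 obstruction/vehicle arrays in 29 of the 40 brighter members, whose medians on replicates 1, 2 and 3 were -0.74, -0.20 and -0.61. On the scanner ratio the 3 medians were -1.08, -0.86 and -0.91. The spread of log2 ratios over all kept probes was also smaller on it, with an SD of 0.32 against 0.57 and 0.54. The medians were -0.70, -0.52 and -0.49 on sham/Eviprostat and -0.22, -0.22 and -0.19 on obstruction/Eviprostat.

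Members described less fully lay between these patterns. Chst10, which sulfates the HNK-1 carbohydrate, Crkrs (now Cdk12), a kinase of RNA polymerase II, and Slc25a27, a mitochondrial carrier, were at -0.15 ± 0.20, -0.19 ± 0.15 and -0.14 ± 0.15 against sham/vehicle in obstruction/Eviprostat. Plcb1, a phospholipase C of G protein signalling, was at -0.63 ± 0.19 and Trim14, an antiviral signalling adaptor, at -0.44 ± 0.13. None of these passed the test. By role, the medians in obstruction/Eviprostat minus sham/vehicle were -0.39 for secreted proteins, -0.23 for enzymes and -0.10 for transporters and channels. They were -0.29 for vesicle and motor proteins, -0.25 for signalling proteins and -0.04 for nuclear proteins, while the median over all probes was 0.00. The choice favours genes that read high on sham/vehicle. Brightness also differed by role, with 7 of 8 secreted but 4 of 9 nuclear proteins among the brighter members. Its part in these medians was not tested.

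A second probe often read differently. Of the members, 21 had 25 further probes of the same gene name, of which 21 were bright enough to be kept. On the scanner ratio 3 of the 25 met both thresholds and 15 were below 0 in both. The other Sult1b1 probe read -0.31 with obstruction, -0.32 with the drug and 0.78 with both, each minus sham/vehicle, and the other Hapln2 probe -0.15, -0.42 and 0.24. The other Mt1a probe read -0.55, -0.48 and 0.03, so it was low in both groups of the choice but not in the combined group. The other Myo5c probe was at -0.37, -0.03 and 0.04, that of Bcmo1 at -0.01, 0.04 and -0.02, and that of Slc16a6 at 0.12, -0.04 and 0.13. The other Trim14 probe was at -0.02, -0.18 and -0.08 and that of Plcb1 at -0.14, 0.16 and 0.15. Those of Slc25a27 were at -0.05, -0.05 and -0.03, and at 0.04, 0.02 and 0.10. For these genes the choice rests largely on the brightest probe. Other Cacna1d probes were at -0.61, -0.30 and -0.17, and at -0.14, -0.20 and -0.07. Those of Sv2b were not kept, and on the scanner ratio they read -0.82 and 0.87 with obstruction. Which part of a transcript each probe matches is not given in the sources used here.

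Cy5 alone, without the Cy3 channel, was lower than sham/vehicle for 67 of 68 members with obstruction and for 68 of 68 with the drug. The Cy3 signal, which is sham/vehicle RNA throughout, had medians of -0.11 and 0.00 in the same comparisons. The members were chosen as low on the ratios of these same arrays. Their low Cy5 therefore follows largely from the choice and is not separate support, and the share of all probes was not counted.

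Markers of the seminal vesicle, a gland beside the prostate, moved in the opposite direction to the members. None of the 68 is on that list. Of 7 seminal vesicle secretory protein genes, 6 were higher in obstruction/vehicle and 6 in sham/Eviprostat (limma, adjusted p under 0.05, beside 7.16% and 0.87% of all probes), with median differences of 5.78 and 5.26, and 1 was higher in obstruction/Eviprostat, with a median of 0.42. Their mean ratio ran from 0.03 to 0.06 on sham/vehicle arrays, from 4.28 to 4.43 on sham/Eviprostat, from 4.51 to 5.17 on obstruction/vehicle and from 0.55 to 0.86 on obstruction/Eviprostat. Of the 7, 1 failed the background condition on every sham/vehicle array. This list was high in the groups in which the members were low. The choice fixed the members as low in those groups, so the opposition follows in part from the choice and is not separate support. Obstruction/vehicle replicate 2 had the lowest marker mean of its group and the highest median of the brighter members. Its ratios over all kept probes also spread least in that group, with an SD of 0.32. In obstruction/Eviprostat the order differed: marker means were 0.55, 0.80 and 0.86 on replicates 1, 2 and 3, with member medians of -0.22, -0.22 and -0.19. The part of seminal vesicle RNA in the members' fall was not tested.

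**Figure D4:**
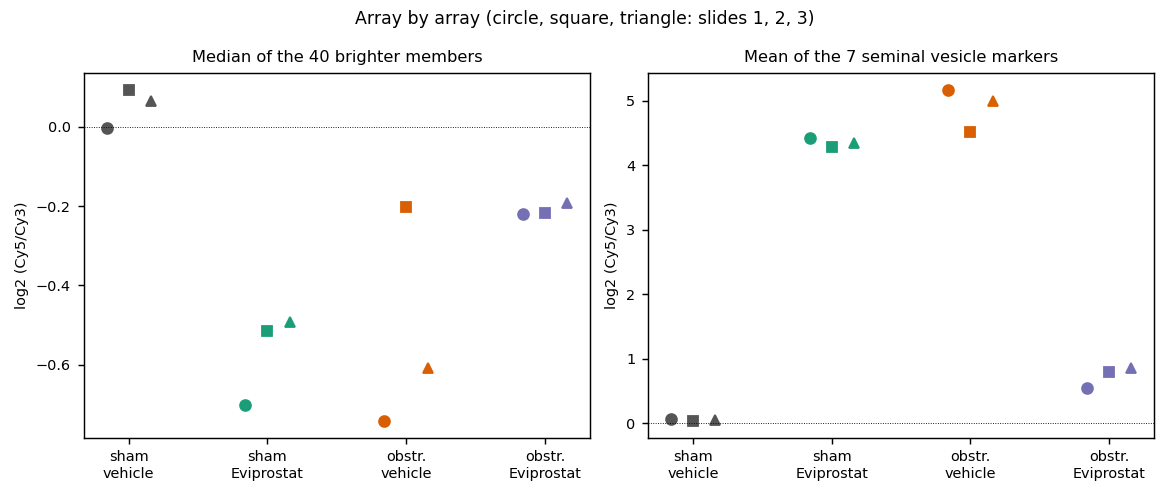
Median log2 ratio of the 40 brighter members (left) and mean log2 ratio of the 7 seminal vesicle markers (right) on each of the 12 arrays, by group, with symbols for slides 1, 2 and 3. The members, chosen as low in sham/Eviprostat and obstruction/vehicle, are lowest there, except on obstruction/vehicle replicate 2 at -0.20. The markers are highest in the same groups, and obstruction/Eviprostat lies nearer to sham/vehicle in both panels.

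Other cell type lists followed those groups in part. All 8 prostate luminal epithelium markers were measured, and each was well above background on at least 1 sham/vehicle array. Of these, 3 were lower with obstruction, 0 with the drug alone and 0 with both, with medians of -0.13, 0.09 and 0.14 (limma). Beside them, 4.45%, 0.659% and 0.119% of all probes were lower. Of 26 skeletal muscle genes 14 were lower with obstruction and 16 higher with the drug alone, with medians of -0.70 and 1.22; 2 were higher with obstruction, and with both 7 were lower and 0 higher, with a median of -0.60. All 11 macrophage markers were higher with obstruction, 0 with the drug alone and 1 with both. Smooth muscle markers were higher with obstruction in 6 of 8, with the drug alone in 3 and with both in 0, fibroblast markers in 5 of 6, 2 and 0, and nerve and Schwann cell markers in 4 of 7, 3 and 1. Their part in the members' values was not tested.

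Fixed lists of related function held none of the members. Over all probes, 7.16% were higher and 4.45% lower with obstruction, 0.87% and 0.659% with the drug alone, and 0.175% and 0.119% with both (limma, adjusted p under 0.05). Of 28 prostate secretory and androgen-regulated genes 8 were lower and 5 higher with obstruction, 1 lower and 3 higher with the drug alone, and 1 lower and 1 higher with both. Of 18 genes of xenobiotic metabolism 2 were higher and 0 lower with obstruction, near the share of all probes, 2 and 0 with the drug alone, and 0 and 0 with both. Of 17 ion channels and pumps 3 were higher and 3 lower with obstruction, and 0 were called with the drug alone or with both.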

How the data were processed

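The authors deposited the scanner output of each array, made (per the submitters' processing notes) with Agilent Feature Extraction 9.5.1.1, holding spot intensity and background intensity of both channels and processed intensity values. Members were chosen on the log2 of the deposited processed Cy5 over Cy3 intensity. The deposited value table holds the scanner's log10 ratio, with a largest difference of 0. Probe positions are on build rn3 per the file headers. The flag for spots well above background was used as deposited. Cy5 was well above background at 70.9% to 88.4% of spots per array, with medians of 401 to 677; the number of arrays limits precision. Slide 1 was scanned on another day and was dimmer.

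For the tests, intensities were background-corrected (normexp, offset 50) and loess-normalized within arrays in limma 3.58.1 under R 4.3.3. Outlier spots were left out. Of 41012 probes, 36098 with Cy5 well above background on at least 3 of 12 arrays entered a fit of 4 group means, which leaves 8 residual degrees of freedom, with adjusted p-values after Benjamini and Hochberg and a threshold of 0.05. The rest was done in Python 3.11.15 with pandas 2.3.3 and matplotlib 3.10.9. The fit was tested on simulated data. Samples on the same slide deviate together (correlation of deviations 0.536 to 0.779 on slide 1, 0.155 to 0.575 on slide 2 and 0.376 to 0.556 on slide 3), so the replicate numbers pair the arrays. Of the members, 22 were renamed through RefSeq; Expi was kept since the array does not name it Wfdc18.

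Members and lists were chosen with earlier results of these data known. The genes described singly are the 30 with the largest smaller drop as a pool, the members called against another group and the 3 nearest the threshold on each side; others are said to be chosen on their values. Differences of obstruction/vehicle and sham/Eviprostat from sham/vehicle chose the members, so no test of them is given for members. Alternatives tried were median centring, the scanner ratio, both filters on dim probes, slide as a block, slides 2 and 3, single arrays left out, Cy5 alone, a threshold of 1.0, the brightest probe by sham/vehicle arrays, fewer groups in the fit and, added after the data were seen, locus identifiers counted as named. Results of 1 brighter member are not reported here singly; it stays in the counts.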

Additional observations from a re-analysis of the deposited data

Results flagged for a closer look

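In 22 of 68 members Eviprostat read opposite ways in obstructed and in sham rats on all 3 slides: higher than vehicle in obstructed rats and lower than vehicle in sham rats. They include all 7 members that were higher than obstruction/vehicle at an adjusted p under 0.05 by limma, and the values of these 7 follow. Eviprostat minus vehicle in obstructed rats was 0.67 for Bcmo1, 1.48 for Sult1b1, 1.06 for Abcg5, 0.86 for Creg, 0.99 for Hapln2, 0.84 for Znf386 and 1.89 for Slc2a5 (log2). The difference between these effects was not tested, and the choice of members fixed the direction in sham rats and favoured that in obstructed rats. The share of all probes with this pattern was not counted, so the 22 cannot be read as a trait of the members.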

How the results depend on the processing

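Chosen by a threshold of 1.0 there were 7 members in place of 68, and with locus identifiers 108. In the order lower than Cy3 (8), lower than sham/vehicle (4), higher than obstruction/vehicle (7) and higher than sham/Eviprostat (5), the counts were 2, 0, 2 and 0 with median centring, 21, 20, 34 and 17 on the scanner ratio, 21, 11, 17 and 14 with the replicate block, 13, 7, 13 and 10 on slides 2 and 3, and 3, 1, 0 and 0 at the threshold of 1.0. The cause was not tested, and the shares of all probes called under these alternatives were not counted. With locus identifiers, which adds genes, the last 2 counts were 12 and 8. On Cy5 alone 7 were lower than sham/vehicle and 16 higher than obstruction/vehicle, and with only its own arrays in the fit 13 were lower than Cy3. Leaving out each array in turn gave 3 to 11, 2 to 8, 5 to 18 and 2 to 8. The first count was 3 without obstruction/Eviprostat replicate 2 or 3, 4 without sham/vehicle replicate 3, and 5 without obstruction/Eviprostat replicate 1, sham/Eviprostat replicate 2 or 3 or sham/vehicle replicate 2. The second was 8 without obstruction/vehicle replicate 2, and 2 without obstruction/Eviprostat replicate 2 or 3, sham/Eviprostat replicate 2 or 3 or any sham/vehicle array. The third was 18 without obstruction/vehicle replicate 2. The fourth was 8 without that array, 2 without obstruction/Eviprostat replicate 2 or 3 or sham/Eviprostat replicate 1 or 2, and 3 without sham/Eviprostat or sham/vehicle replicate 3. Of 29 calls of single members, 4 were kept under every alternative run and 0 reversed; the block changed none of them. The number of arrays and the faint signal of the 28 dimmer members limit what can be seen.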

Other observations

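The 40 locus identifiers that met the same conditions include further genes with both patterns. LOC688047, described on the array as similar to a lysozyme, was a dim probe (mean log2 Cy5 of 6.76) with differences of -0.75 with obstruction, -1.14 with the drug alone and 0.63 with both after background correction and loess, against -2.51, -2.65 and 1.00 on the scanner ratio. The value with both did not pass against sham/vehicle (limma, adjusted p = 0.73). RGD1306005 (now Slc38a11), an amino acid transporter family gene, fell by 0.77 against Cy3 in obstruction/Eviprostat (limma, adjusted p = 0.0025) and stood 1.20 above obstruction/vehicle. RGD1560559 (now Teddm3) stood 1.21 above obstruction/vehicle and 1.13 above sham/Eviprostat (log2). LOC686820, described as similar to Robo-1, fell by 1.41 against Cy3 (limma, adjusted p = 0.019). These genes were chosen after their values were seen.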
